A study of Mus musculus with 10 samples.

Results

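The genes described here serve the last steps of platelet production, the extension of proplatelets by megakaryocytes and the packing of platelet granules. They are Tubb1, Nbeal2, Rab27b, Vps33b, Vipas39, Myh9, Flna, Wdr1 and Tpm4, chosen by name. Every probe set that the array's annotation ties to exactly 1 of these 9 symbols was taken, which gave 21 of the 45037 probe sets, for 9 of the 18193 genes so named. They were measured in 10 individual mouse fetal livers at embryonic day 14.5, 5 of them wild type and 5 Zfp36l2 knockout, 1 liver and 1 array for each replicate. All were of a mixed B6 and 129 background, and the knockout allele is described no further in the labels. Zfp36l2 encodes an RNA-binding protein that promotes the decay of mRNAs with AU-rich elements, and the comparison asks how the fetal liver's mRNA differs without it.

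Megakaryocytes are the large cells that release platelets. They extend long shafts, the proplatelets, that are filled with bundled microtubules and reshaped by actin and non-muscle myosin, and they load alpha-granules with proteins and dense granules with small molecules before release. At this age the liver is a main site of blood formation, and megakaryocytes are a small part of its cells among erythroid cells and hepatoblasts. Of the 9 genes, Tubb1, Nbeal2 and Rab27b are treated as lineage-restricted, meaning that among blood cells megakaryocytes are a known main site of their expression, and the other 6 as widely expressed. In whole liver a widely expressed gene is read mostly from other cells. In such bulk RNA, fewer megakaryocytes and less RNA per megakaryocyte cannot be told apart.

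No gene of the set was called in the knockout livers among the 8 that could be tested. Rab27b, a small GTPase of dense granule formation and secretion, had the lowest value of log2 change among the 8 tested genes, at -0.84 ± 0.20 (SE, n = 5 livers a genotype). Tubb1, the beta-tubulin of the platelet's marginal microtubule band, stood at 0.29 ± 0.40. The 6 widely expressed genes lay between -0.25 and 0.17. Nbeal2, whose loss causes grey platelet syndrome, was too dim to be tested.

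A probe set was tested where its mean log2 intensity reached the 40th percentile of all probe sets, and it was called where its limma p adjusted by Benjamini-Hochberg over all 27022 tested probe sets was under 0.05. Intensities are in array units after quantile normalization, and log2 changes are knockout minus wild type. Of the 21 probe sets 19 were tested, from 8 genes, and 0 were called, where limma called 0.0407% of all tested probe sets (0.037% lower). At an unadjusted limma p under 0.05 stood 4 of the 19, 3 lower and 1 higher, against 8.42% of all tested probe sets (4.17% lower). Where a gene had several probe sets, the one of highest mean log2 stands for it. Of the 8 genes 0 were called, against 0.0706% of the 12741 tested genes. At an unadjusted limma p under 0.05 stood 3 of the 8, Rab27b and Tpm4 lower and Wdr1 higher, against 10.3% of tested genes (5.02% lower). The median log2 change of the 8 genes was -0.06, and that of all tested genes 0.0041. These were 2 lineage-restricted genes with opposite signs and 6 widely expressed genes with a median of -0.06. Of these 6, 5 were negative, where 49.2% of all tested genes were. With median scaling, which moved the median of all genes to 0.07, 2 of the 6 were negative.

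Facts of the libraries bear on every value. Array medians of the deposited intensities ran from 19.5 to 25.01 and 20.7% to 22.6% of the values of an array were at or below 0. Zfp36l2 itself read 389 to 596 in the wild type livers and 82.3 to 109 in the knockout livers (limma adjusted p = 1.97e-05), so the arrays bear out their labels. The tissue's defining genes were bright in both genotypes, as the fetal hepatocyte protein Afp averaged 16358 and 16287 and the red cell anion exchanger Slc4a1 7929 and 7896. These 2 values show brightness and not an equal make-up of the livers. Afp had the same median and maximum, 16538.5, in both genotypes. Of the 8 tested erythroid markers 7 had negative changes, with a list median of -0.24, and Slc4a1 was the 1 that did not.

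**Figure D1:**
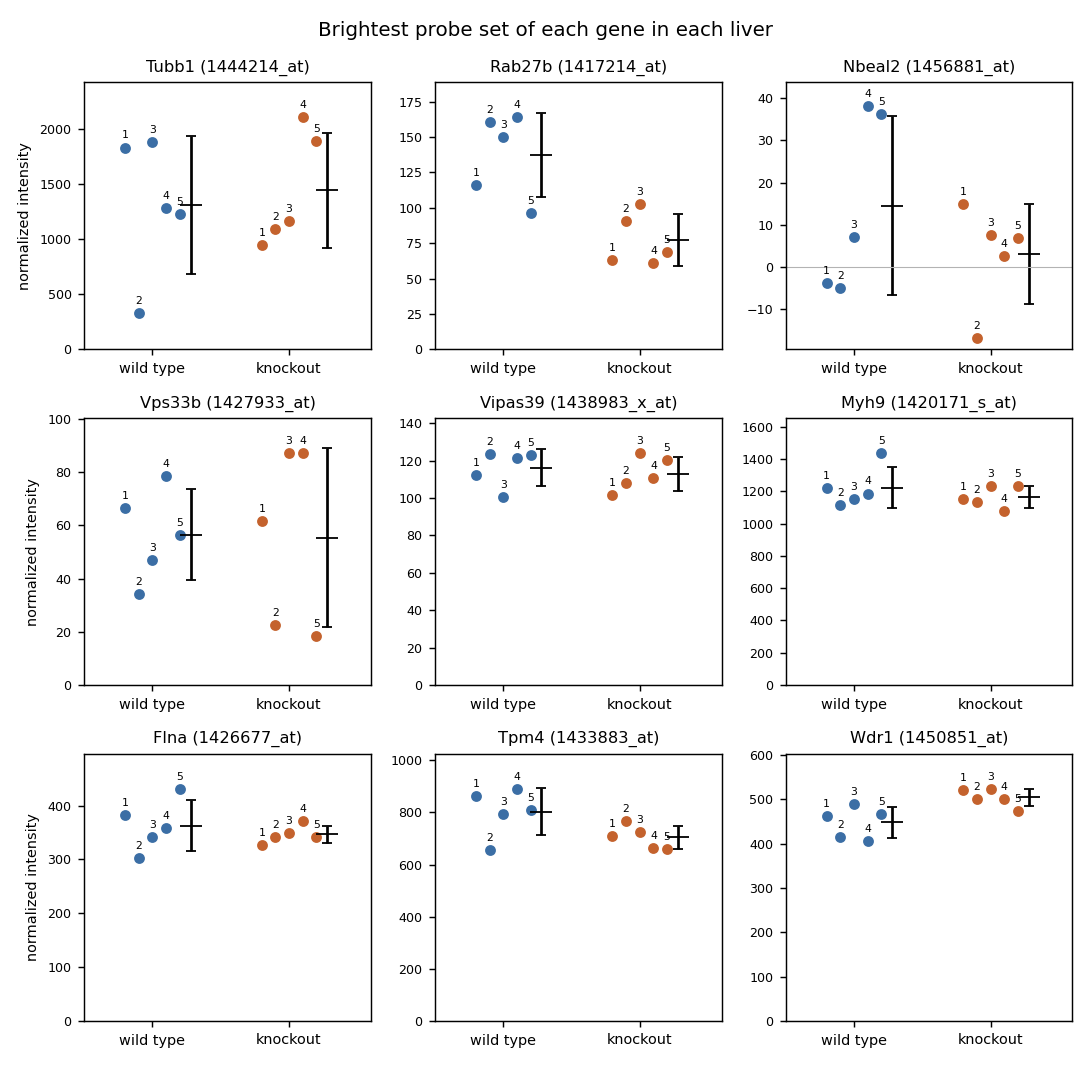
Normalized intensity (vertical axis, array units) of the brightest probe set of each gene in 5 wild type (blue) and 5 knockout (orange) livers. Digits are replicate numbers, which were not used to pair livers here, and black bars are mean ± SD. Rab27b is lower in 4 of 5 knockout livers than in any wild type liver, wild type replicate 2 stands far below the rest for Tubb1, Nbeal2 lies around 0, and Myh9, Flna and Vipas39 overlap widely between genotypes.

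Tubb1 is the microtubule gene of the set. Its product is the beta-tubulin isotype of megakaryocytes and platelets, and 1 probe set measured it. Which part of the transcript that probe set covers was not analysed here, and every statement on Tubb1 rests on it. In wild type livers 1 to 5 it read 1832, 330.3, 1882, 1284 and 1231, and in knockout livers 1 to 5 it read 947, 1096, 1168, 2108 and 1894. The genotypes overlapped over nearly their whole range, and the highest values were in knockout livers 4 and 5 and wild type livers 1 and 3. The lowest, 330.3 in wild type replicate 2, stood apart from all the others.

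The means of Tubb1 were 1312 ± 626 and 1442 ± 521 (SD, n = 5), and the log2 change had a 95% confidence interval from -0.59 to 1.16 (limma adjusted p = 0.815). Without wild type replicate 2 the log2 change was -0.16 (limma adjusted p = 0.834). The sign of the Tubb1 difference therefore rests on that liver, and the interval is open to both signs. Within genotypes Tubb1 varied by an SD of 0.81 on the log2 scale. That was more than 99.6% of the tested probe sets whose mean log2 lay within 0.5 of its own, and the bright probe set of Myh9, of a like mean, varied by 0.12. This SD includes wild type replicate 2, at a log2 value of 8.37 against 10.3 to 10.9 in the other wild type livers. The SD and its rank without that liver were not computed.

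Rab27b and Nbeal2 are the lineage-restricted genes of the granules. Rab27b carries 4 probe sets, of which the brightest, 1417214_at, read 116, 161, 150.4, 164 and 96.7 in wild type livers 1 to 5. In knockout livers 1 to 5 it read 63.1, 90.8, 103, 60.8 and 68.6. The genotypes overlapped only through knockout replicate 3, which lay above wild type replicate 5.

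The means of Rab27b at this probe set were 138 ± 29.7 (wild type) and 77.2 ± 18.6 (knockout; SD, n = 5), 1.78-fold apart. The log2 change of -0.84 had a 95% confidence interval from -1.26 to -0.41, with an unadjusted limma p of 0.000959 and an adjusted p of 0.146. The exact two-sided permutation test of the 10 livers gave p = 0.0159. The log2 change was larger than the SD within genotypes, 0.34 on the log2 scale, though single livers overlapped. It did not pass over all probe sets.

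Another probe set of Rab27b, 1439610_at, read 71.8, 50.1, 61.01, 94.7 and 51.5 in wild type livers 1 to 5, and 20.5, 35.2, 35.96, 13.6 and 24.8 in the knockout livers. Every knockout liver lay under every wild type liver here. Such a gap was seen in 1 of the 19 probe sets with knockout lower and in 0 with knockout higher, against 1.2% and 1.14% of all tested probe sets. The means were 65.8 ± 18.4 and 26.01 ± 9.61 (SD, n = 5). The log2 change was -1.39 ± 0.33, with an adjusted limma p of 0.142 and an exact permutation p of 0.00794, the smallest that 5 against 5 livers can give. With intensities under 16 raised to 16 it was -1.34 (limma adjusted p = 0.0739), since 1 knockout liver lay under that floor.

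Of the remaining probe sets of Rab27b, 1443764_x_at was about as bright as 1439610_at, with mean log2 values of 5.35 and 5.31. The last, 1417215_at, was dimmer. 1443764_x_at averaged 43.7 ± 9.78 and 40.1 ± 12.5, with a log2 change of -0.15 (limma adjusted p = 0.864). Its suffix is the array maker's mark for probes that can also match other transcripts. 1417215_at averaged 20.1 ± 5.99 and 6.08 ± 9.55 and had 1 liver below 0, so no fold is given. Of the 4 probe sets 2 thus had an unadjusted p under 0.05, none was called, and all 4 had negative changes.

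**Figure D2:**
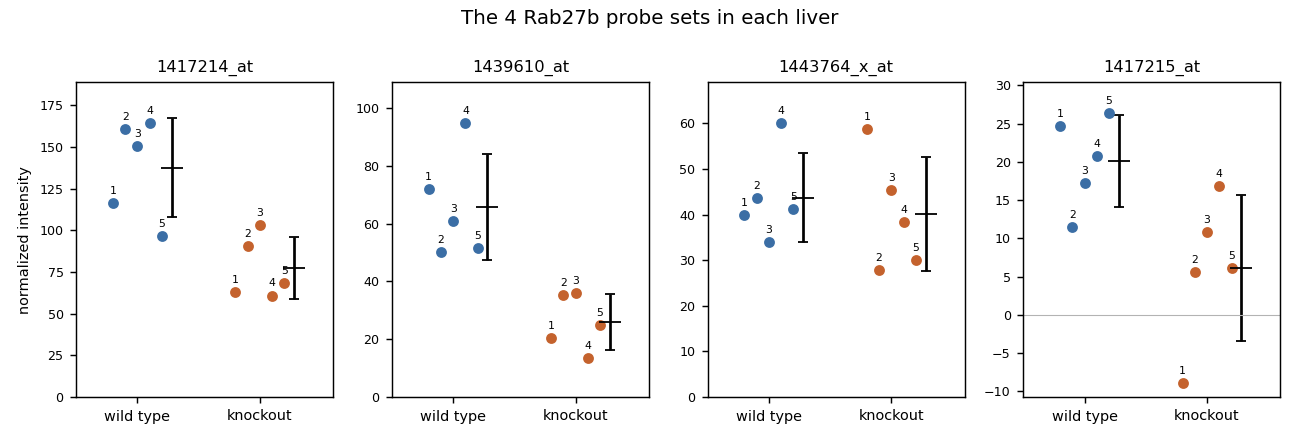
Normalized intensity (vertical axis, array units, a separate scale per panel) of each Rab27b probe set in the 5 wild type (blue) and 5 knockout (orange) livers, with replicate numbers and mean ± SD as black bars. At 1439610_at the genotypes are apart, at 1417214_at knockout replicate 3 reaches 103 against 96.7 in wild type replicate 5, and at 1443764_x_at the genotypes overlap.

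Nbeal2 encodes a large BEACH-domain protein that alpha-granules need in order to keep their cargo. Its 2 probe sets failed the filter. 1456881_at read from -5.08 to 38.1 in wild type livers and from -16.9 to 14.8 in knockout livers, and 1455694_at averaged -41.4 and -21.7. The highest readings were 38.1 and 36.3, in wild type livers 4 and 5, and 8 of the 10 livers lay under 16. With a floor of 16, 1456881_at had a log2 change of -0.49 (limma adjusted p = 0.635). Nbeal2 was thus not measured well enough at this signal to be described further.

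Vps33b and Vipas39 encode the partners of a membrane-tethering complex that sorts cargo to alpha-granules and also acts in other cells, among them hepatocytes. Vps33b was dim and uneven, at 66.7, 34.2, 46.99, 78.5 and 56.3 in wild type and 61.7, 22.5, 87.1, 87.2 and 18.6 in knockout livers. Knockout livers held both its highest and its lowest values. Its log2 change was -0.25 with a 95% confidence interval from -1.22 to 0.71 (limma adjusted p = 0.856), too wide to exclude a change of the size seen in Rab27b.

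Vipas39 was steadier. Its brightest probe set had means of 116 ± 10.002 (wild type) and 113 ± 9.24 (knockout), a log2 change of -0.04 with an interval from -0.29 to 0.21 (limma adjusted p = 0.922). A second probe set, 1416096_at, averaged 89.3 ± 2.11 and 91.2 ± 11.2, and its log2 change was 0.02. Both intervals leave out a change as large as the value of Rab27b. The third probe set was dim, at 21.6 and 9.36, with 1 liver below 0.

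Myh9, Flna, Tpm4 and Wdr1 are the actin and myosin genes. Myh9 encodes the heavy chain of non-muscle myosin IIA, the motor that restrains proplatelet formation and is mutated in inherited thrombocytopenia with giant platelets. Its brightest probe set read 1219, 1114, 1152, 1187 and 1438 in wild type and 1151, 1133, 1234, 1079.7 and 1235 in knockout livers. Apart from the high wild type replicate 5, the genotypes overlapped throughout. The log2 change was -0.06 with a 95% confidence interval from -0.22 to 0.09 (limma adjusted p = 0.770). Of its other 4 probe sets 3 had changes between -0.18 and -0.09 and 1, dim, had 0.03; none was called, at adjusted limma p from 0.734 to 0.987.

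Flna encodes filamin A, the actin crosslinker that ties the platelet receptor for von Willebrand factor to the cytoskeleton. It read 382, 302, 341, 359 and 431 in wild type and 327, 342.1, 350, 371 and 342.2 in knockout livers. All knockout values lay inside the wild type range. Its log2 change was -0.06 with an interval from -0.25 to 0.14 (limma adjusted p = 0.831).

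Tpm4, a tropomyosin that lines actin filaments and is needed for normal platelet number, read 865, 657, 793, 891 and 811 in wild type livers. In knockout livers it read 709, 765, 723, 663 and 661. Of the wild type livers 4 lay above every knockout liver, and wild type replicate 2 lay below all of them. The means of 803 ± 90.9 and 704 ± 43.9 (SD, n = 5) gave a log2 change of -0.18 ± 0.08, with an unadjusted limma p of 0.0413, an adjusted p of 0.559 and an exact permutation p of 0.0794. With median scaling the change was -0.10, with an unadjusted limma p of 0.161.

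Wdr1 encodes an actin-interacting protein that speeds filament disassembly with cofilin. Its brightest probe set, 1450851_at, read 407 to 489 in wild type and 474 to 524 in knockout livers. The genotypes overlapped, as knockout replicate 5 (474) lay below wild type replicate 3 (489). The means were 448 ± 35.2 and 504 ± 19.8, a log2 change of 0.17 ± 0.07 with an unadjusted limma p of 0.0238, an adjusted p of 0.467 and an exact permutation p of 0.0159. The other 2 probe sets, 1423054_at and 1437591_a_at, gave log2 changes of 0.0081 and 0.15 (limma adjusted p = 0.981 and 0.735), so the probe sets of Wdr1 differ in size of change. By mean log2 1423054_at was nearly as bright as 1450851_at (8.85 and 8.89), and in wild type livers its mean was the higher, at 461.

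**Figure D3:**
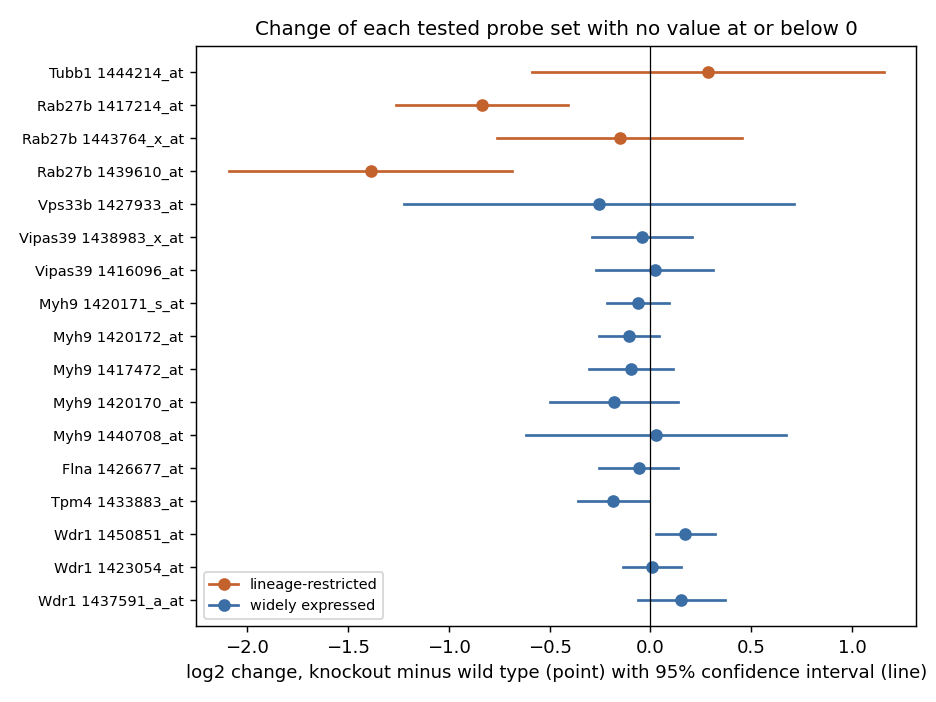
Log2 change, knockout minus wild type (horizontal axis; points), with limma's 95% confidence interval (lines) for the 17 tested probe sets that had no value at or below 0; orange marks lineage-restricted and blue widely expressed genes. The intervals of 2 Rab27b probe sets and, narrowly, of Tpm4 lie wholly below 0, that of the brightest Wdr1 probe set lies above 0, those of Tubb1 and Vps33b are the widest, and those of Myh9, Flna and Vipas39 span 0.

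Megakaryocyte markers are the yardstick for the lineage-restricted genes. Their list was chosen with earlier results of these data known, so its share of called genes is a description. Of these markers 18 were tested, 17 with negative changes, and their median log2 change was -1.04. The chemokines Pf4 and Ppbp and the kinase C substrate Plek fell (3 of 18 called over all probe sets, against 0.0628% of tested genes called lower; with a floor of 16, 9 against 0.172% lower and 0.328% in either direction). Without wild type replicate 5 the count was 9, and without knockout replicate 3 it was 7. The summed intensity of the 18 markers was 5973 to 8152 in wild type and 3164 to 4493 in knockout livers, and none averaged at or below 0 in wild type. Pf4 changed by -1.39 ± 0.13 (limma adjusted p = 0.000951). Itga2b, Itgb3 and Gp9, parts of the platelet's fibrinogen and von Willebrand factor receptors, had values of -0.83, -1.11 and -1.11 that were not called (limma adjusted p = 0.0725, 0.0792 and 0.100). The 1 positive marker, Selp, was dim with 1 liver at or below 0. How far the marker level bears on the values of Rab27b was not tested beyond the comparison that follows.

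Each liver's log2 value was set against its marker score, the median over the 18 markers of the log2 value minus the marker's mean. The score ran from 0.24 to 0.72 in wild type and from -0.71 to -0.06 in knockout livers. In 8 such comparisons of genes with the score, made after values were seen, Rab27b differed between genotypes by 0.18 with a 95% confidence interval from -0.29 to 0.65 (limma adjusted p = 0.492), so no difference between its change and that of the markers was detected. Leaving out single livers moved this value between 0.04 and 0.32. Single livers did not all follow the score. Knockout replicate 3, with the highest marker score among the knockout livers, had the highest Rab27b reading among them at 1417214_at and 1439610_at. Knockout replicate 2, with the lowest score (-0.71), had the next highest at both, 90.8 and 35.2. Wild type replicate 2, with the lowest wild type score (0.24), read 161 at 1417214_at, among the highest, and 50.1 at 1439610_at, the lowest wild type value.

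Tubb1 was higher in the knockout livers relative to the marker score, by 1.30 with an interval from 0.59 to 2.01 (limma adjusted p = 0.00266), and by 0.93 without wild type replicate 2 (interval 0.43 to 1.44, limma adjusted p = 0.00247). The exact permutation p of the 10 livers was 0.0159, or 0.0212 adjusted over the 8 comparisons. Whether Tubb1 and Rab27b differed from each other was not tested. Of the 6 widely expressed genes, 5 were higher on this relative scale, by 0.83 to 1.18, and Vps33b was not called, at 0.76 (limma adjusted p = 0.103). Any gene that keeps its level differs from a marker list that is lower, and 73.7% of all tested genes were called higher relative to the score. Tubb1 by itself had a log2 change of 0.29 (limma adjusted p = 0.815). Neither its relative value nor the count of widely expressed genes therefore sets these genes apart from that share. Tubb1 did not fall with the markers, though it is treated here as lineage-restricted. Whether its probe set reads megakaryocytes in these livers was not tested.

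The other cytoskeletal genes of proplatelets were counted from a list of 40, with tubulins, myosin light chains, actins and their regulators, of which 37 were tested. In limma 0 were called, 23 had positive and 14 negative changes, and the median was 0.05. At an unadjusted p under 0.05 stood 6 higher and 4 lower, where 10.3% of all tested genes did and 5.02% were lower. The lowest p belonged to Myl9, a regulatory light chain of myosin II in platelets and smooth muscle, with means of 145 ± 17.8 (wild type) and 88.01 ± 17.2 (knockout). Its genotypes did not overlap, which held with knockout lower for 2 of the 37 genes against 1.46% of all tested genes, and wild type livers read 122 to 170.4 and knockout livers 71.8 to 115, and its log2 change was -0.74 ± 0.15 (limma adjusted p = 0.0993).

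Vcl, vinculin of integrin adhesions, averaged 678 ± 51.2 and 567 ± 14.5 and also did not overlap (log2 change -0.26, limma adjusted p = 0.159). Actg1, a cytoplasmic actin, averaged 5277 ± 287 and 6049 ± 405 (0.20, limma adjusted p = 0.267), and Tpm3, another tropomyosin, had a log2 change of 0.14 (limma adjusted p = 0.378). The list's brightest gene, Actb, had a log2 change of 0.06 (limma adjusted p = 0.737). Non-overlap with knockout higher was seen in 1 of the 37, Arpc2 of the actin-branching complex, named after its values were seen, against 1.37% of all tested genes, and its log2 change was 0.12. Markers of stellate, mesenchymal and smooth muscle cells, which also express Myl9, had a median of 0.07 over 10 tested genes, from -0.056 to 0.154 with single livers left out. Among them, named after their values were seen, Tagln had a log2 change of -0.61 and Acta2 of 0.20, neither called (limma adjusted p = 0.693 and 0.733). The list's summed intensity was 5343 to 6283 in wild type and 5410 to 7563 in knockout livers.

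Of 30 other granule biogenesis genes, the Hermansky-Pudlak, AP-3, HOPS and secretion genes among them, 28 were tested. In limma 0 were called, 14 were positive and 14 negative, with a median of 0.01, and 2, both lower, had an unadjusted p under 0.05. That is a share near or under the 10.3% of all tested genes (5.02% lower), so the count sets the list apart in no way. Slc35d3, a transporter-like protein of dense granules, averaged 48.5 ± 15.6 and 23.4 ± 13.6, and its log2 change of -1.26 (limma adjusted p = 0.466) was -0.97 with a floor of 16, as 1 liver lay below it. Stx11, the syntaxin of granule secretion, averaged 136 ± 25.0 and 99.9 ± 20.2, a log2 change of -0.44 (limma adjusted p = 0.489). On the positive side the lowest p belonged to Rab32 and Vps11, at 0.33 and 0.35 (limma adjusted p = 0.701 and 0.727), and the brightest gene, Ap3b1, stood at 0.09.

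Other tubulins were compared because Tubb1 belongs to a family of similar proteins. Of 12 alpha- and beta-tubulins 8 were tested, 0 were called in limma, and the median log2 change was 0.09. Without wild type replicate 3 this median was 0.028, and without wild type replicate 2 it was 0.040. Tubb5, the common beta-tubulin, read 4213 to 4517 in wild type and 3735 to 4201 in knockout livers, narrowly without overlap. Its log2 change was -0.11 (exact permutation p = 0.00794, limma adjusted p = 0.476), and that permutation p restates the lack of overlap. Non-overlap with knockout lower was seen in 1 of the 8 tubulins, against 1.46% of all tested genes. The other named tubulins stood at 0.10 for Tuba4a, -0.06 for Tubb4b and 0.09 for Tubb2a (limma adjusted p from 0.707 to 0.748).

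**Figure D4:**
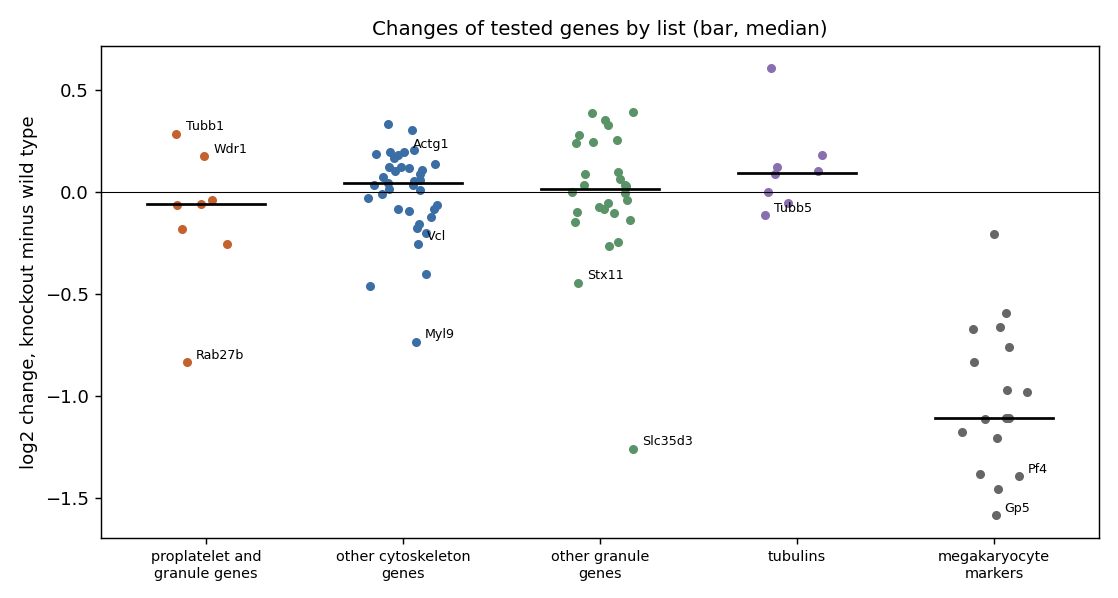
Log2 change, knockout minus wild type (vertical axis), of each tested gene without a value at or below 0, by list, with the median as a black bar. The 9 genes' list is drawn with its 8 tested genes and has a median of -0.06, the other cytoskeleton, granule and tubulin genes centre at 0.05, 0.01 and 0.09, and 17 megakaryocyte markers centre at -1.11, with Rab27b, Myl9 and Slc35d3 at -0.84, -0.74 and -1.26 beside them.

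Markers of other cells were read in the same livers. Neutrophil markers had a median log2 change of 0.84 over 10 genes, with S100a9 the brightest at 4234 ± 2888 and 6876 ± 1571, and monocyte and macrophage markers 0.40 over 10, with Lyz1 at 1353 and 2754. Their summed intensities were 6348 to 28016 and 3784 to 8900 in wild type, and 14162 to 26777 and 7228 to 9693 in knockout livers. Erythroid markers had a median of -0.24 over 8 genes, hepatocyte markers 0.06 over 8 and endothelial markers, with Lyve1 the brightest at 318 and 352, 0.11 over 8. Vim was the brightest mesenchymal marker, at 1628 and 2061. In limma 0 genes of these lists were called, and 6 neutrophil, 6 monocyte and macrophage, 6 erythroid, 2 hepatocyte, 3 endothelial and 1 mesenchymal marker had an unadjusted p under 0.05. Of all tested genes 10.3% did, so the 1 of 10 mesenchymal markers is near that share. Wild type replicate 5 had the highest neutrophil marker score of the 10 livers, 0.89, where the other wild type livers had -1.41 to 0.08 and the knockout livers -0.16 to 0.79. Without it limma called 3 neutrophil, 4 monocyte and macrophage and 1 mesenchymal marker. Over all 27022 tested probe sets it then called 77 higher and 25 lower. The endothelial and mesenchymal medians changed sign with single livers left out, with lowest values of -0.016 and -0.056. Their part in the values of the widely expressed cytoskeletal genes was not tested.

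The genes whose readings ran most like the lineage-restricted genes over the 10 livers were found by Pearson's r of log2 values among 12740 other tested genes, as a description. For Tubb1 these were Pdzrn3 (r = 0.942), Phf20 (0.930) and 1700022A21Rik (0.920), and wild type replicate 2 was lowest of the 10 livers in all 3, as in Tubb1. Pdzrn3 and 1700022A21Rik were dim there, at 4.92 and -9.41, while Phf20 read 104 against 146 to 237 in the other livers. The -9.41 entered the correlation at the floor of 0.000978, far below the other livers on the log2 scale. How much of these 3 r values rests on wild type replicate 2 was not computed, so they do not show likeness over the other livers. Tubb1 and Phf20 both lie on chromosome 2 in the RefSeq gene table. For Rab27b they were Hmgn5 (0.908), Tmem18 (0.889) and 1700037H04Rik (0.885), whose log2 changes were -0.17, -0.57 and -0.38 (limma adjusted p = 0.473, 0.289 and 0.0993). The values share arrays and genotypes, and no gene of the megakaryocyte list was among these 6.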

How the data were processed

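RNA of 10 fetal livers at embryonic day 14.5 was labelled from 1 µg of total RNA with a one-cycle Affymetrix kit, per the labels' protocols. Each deposited value is an intensity for 1 probe set on 1 array. The range of the authors' intensity values, from -1090.1 to 18272, shows a linear scale with a subtracted background; software and scaling: not given in the sources used here. Values were quantile-normalized, those at or below 0 set to the lowest positive value (0.000978), and log2 was taken. This floor inflates the log2 changes of dim probe sets, so no fold is given for probe sets that touch it. Probe sets at or above the 40th percentile of mean log2 were tested for genotype alone with lmFit and a trended eBayes of limma 3.58.1 under R 4.3.3, two-sided, with Benjamini-Hochberg adjustment. Confidence intervals are limma's. For single values an exact permutation test over 252 splits of the livers was run. Gene names came from the platform annotation, which gives 1 symbol to 34945 probe sets, several to 932 and none to 9160.

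The members and lists were chosen with earlier results of these data known. The rule for named genes took the 9 members, Zfp36l2, the brightest and up to 2 genes of lowest p in each direction of each pathway list and the megakaryocyte list, some fixed markers, and the brightest gene of each other marker list. The comparison with the marker score was an addition made with the values in view. Simulated data with known changes were used to test the fit. The alternatives covered normalization, floor, filter, variance model, a replicate block and leaving out each liver. Precision is limited by the number of livers. Plots come from matplotlib 3.10.9 under Python 3.11.15. The livers are separate animals; scan dates and litters were not analysed here.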

Additional observations from a re-analysis of the deposited data

Results flagged for a closer look

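Dixon's ratio was computed for 34 groups of 5 livers, from 17 probe sets, and 3 groups held a value past its 95% limit, where chance gives about 1 in 20 groups, or 1.7. Tubb1 was low in wild type replicate 2, at a log2 value of 8.37 where the nearest liver read 10.3. Vipas39 at 1416096_at was low in knockout replicate 1, at 6.16 with the nearest at 6.52. Wdr1 at 1423054_at was high in knockout replicate 2, at 9.05 with the nearest at 8.84.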

How the results depend on the processing

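None of the 9 genes was called under any of the 19 alternatives, nor when any probe set of a gene was counted. Rab27b stayed negative in all of them, from -0.96 to -0.72 at 1417214_at (limma adjusted p from 0.0610 to 0.429) and from -1.53 to -0.97 at 1439610_at (0.0739 to 0.410). The count of called probe sets over the array, 11 here, was 57 with a floor of 16, 51 with an offset of 16, 29 with a filter at the 60th percentile, 2 without trend, 17 with robust variances and 28 with the replicate number as a block, and 5 to 102 with single livers left out: 102 without wild type replicate 5, 5 without knockout replicate 2 and 7 without knockout replicate 4. Called megakaryocyte markers, 3 here, were 9 with a floor or an offset of 16 or without wild type replicate 5, 8 with the 60th percentile filter, 7 without knockout replicate 3, 5 with the block and 0 without trend. Whether the replicate numbers pair livers was not settled. Same-numbered livers correlated at 0.03 to 0.13 after group means were removed. For 3 of the 5 wild type livers the same-numbered knockout liver was the best match. Under the replicate block Rab27b stood at a limma adjusted p of 0.116 and 0.243. Of the called probe sets 1 was higher and 10 lower, against 3 and 8 with median scaling, which moved the median of all genes to 0.07, 3 and 10 with the values as deposited, 29 and 28 with the floor, 26 and 25 with the offset, 12 and 17 with the 60th percentile filter, 13 and 15 with the block, 6 and 11 with robust variances and 77 and 25 without wild type replicate 5. The unadjusted p of Tpm4 was also over 0.05 as deposited, without trend and under the block (0.0560, 0.0872 and 0.0672), and that of Wdr1 (1450851_at) as deposited (0.0611). The tubulins' median was 0.16 with median scaling. Signs near 0 turned. With median scaling Vipas39 (1438983_x_at) was at 0.026, Myh9 (1420171_s_at) at 0.0039 and Flna at 0.011, and as deposited Myh9 (1440708_at) was at -0.029. With single livers left out the ranges were -0.16 to 0.47 for Tubb1, -0.49 to 0.069 for Vps33b, -0.12 to 0.0062 for Flna, -0.0072 to 0.11 for Vipas39 (1416096_at), -0.041 to 0.031 for Wdr1 (1423054_at) and -0.18 to 0.15 for Myh9 (1440708_at). The cause was not tested. Signal over background limits Nbeal2, Vps33b and the probe sets of Rab27b other than 1417214_at.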
